A study of Mus musculus with 6 samples.

Results

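Microglia, the resident macrophages of the brain, were followed in the hippocampus through 9 genes that mark their identity or their activation: P2ry12, Tmem119, Cx3cr1, Csf1r, Trem2, Tyrobp, Aif1, Cd68 and Ptprc. The genes were taken by their symbols, with no threshold on a measured value, and all 9 were found among the 52550 gene identifiers of the count tables. Hippocampal RNA was taken 24 h after surgery from adult male C57BL/6 mice (C57B6/J in the methods of the study) and sequenced with 1 library per mouse. The TBI group (TBI1 to TBI3) had a moderate controlled cortical impact through a craniotomy over the right parietal bone, and the sham group (Sham1 to Sham3) had the same anaesthesia and craniotomy without the impact, so both groups carried the effect of the opened skull. The whole hippocampus was examined, and the tissue was exposed on both sides of the brain, but whether 1 library held both sides is not stated. The values came from whole tissue, in which fewer microglia and less RNA per microglial cell cannot be told apart.

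As background, microglia depend on the growth factor receptor CSF1R for survival and survey the tissue through P2RY12, a receptor for ADP released by damaged cells, and CX3CR1, the receptor for the neuronal chemokine fractalkine. When microglia respond to injury, the homeostatic genes P2ry12, Tmem119 and Cx3cr1 are typically turned down, while signalling by the lipid sensor TREM2 through its adaptor TYROBP, lysosomal CD68 and the cytoskeletal protein IBA1, encoded by Aif1, is typically turned up. Ptprc encodes CD45, a phosphatase carried by all leukocytes, low on resting microglia and higher on cells from the blood. The transcription factor PU.1 binds the promoters of many of these genes at purine-rich sites with a GGAA core.

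The RefSeq table of promoters (build GRCm38.p6) held 6 of the 9 genes, namely P2ry12, Cx3cr1, Trem2, Aif1, Cd68 and Ptprc, with 7 start sites. The 250 bases before each start were searched on both strands for GAGGAA (reverse complement TTCCTC) and GGAAGT (reverse complement ACTTCC), letters that can overlap by sharing GGAA. The windows of 4 of the 6 genes held the first (Trem2, Aif1, Cd68 and Ptprc), against 23.3% of the 32851 promoters in the table, and those of 2 of the 6 held the second (P2ry12 and Ptprc), against 19.7%. The windows of Trem2 (chr17:48346151-48346400, plus strand) and Cd68 (chr11:69666171-69666420, minus strand) are shown, because both genes had their highest level in the same library and neither window overlaps an annotated exon. Both are written 5′ to 3′ on the strand of the gene and end at the base before the start, with the matched letters in capitals.
Trem2: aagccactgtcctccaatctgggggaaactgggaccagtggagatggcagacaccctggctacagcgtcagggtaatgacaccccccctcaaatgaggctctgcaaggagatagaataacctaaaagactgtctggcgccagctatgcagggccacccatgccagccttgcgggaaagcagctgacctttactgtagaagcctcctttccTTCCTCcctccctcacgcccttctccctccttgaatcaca
Cd68: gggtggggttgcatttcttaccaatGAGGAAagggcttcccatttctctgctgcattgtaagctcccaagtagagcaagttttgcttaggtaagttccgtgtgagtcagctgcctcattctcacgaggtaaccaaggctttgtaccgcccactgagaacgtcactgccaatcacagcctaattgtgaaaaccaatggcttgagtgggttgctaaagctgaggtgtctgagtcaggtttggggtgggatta
The match began 40 bases before the start in Trem2 and 225 bases before it in Cd68. In P2ry12 it began 51 bases before the start, in a window that also holds an exon of Med12l, a gene on the opposite strand. The windows of Cx3cr1, Aif1 and Ptprc overlap annotated exons of the same gene. Genes were counted here by any of their windows, 2 for Ptprc, while the shares are per promoter. These matches describe the letters of the windows and are no evidence of binding.

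The estimated counts summed to between 31630936 (TBI2) and 41771872 (Sham1) per library. Levels are given as CPM, the usual scaling of counts to a common library size, with library totals scaled by TMM factors that ran from 0.9701 to 1.025. A pair of libraries stood apart in markers of other cells. In Sham2 the astrocyte gene Gfap was at 4055 CPM, against 541 to 1478 CPM in the other 5 libraries, and the summed level of 8 oligodendrocyte markers was 2994 CPM, against 9045 to 11014 CPM. In TBI1 the summed level of 7 markers of striatal neurons was 4082 CPM, against 179.9 to 254 CPM elsewhere. The 7 choroid plexus markers summed to 63.2 CPM in Sham2, 241 CPM in TBI1 and 259.6 CPM in TBI3, against 2034 to 2366 CPM in the other libraries. The 6 thalamus markers summed to 166, 82.3 and 363 CPM in sham and 106, 369 and 561 CPM in TBI. Of 9 neuronal markers, 3 were lower in TBI without overlap (Slc17a7, Neurod2 and Prox1, the last 2 named after their values were seen), where 5.45% of all genes tested were. Of the 5 astrocyte markers that respond to injury (Gfap, Serpina3n, Vim, Lcn2 and Cd44, set side by side after their values were seen), all 5 were highest in Sham2, a library labelled sham. Over all 10 astrocyte markers, Sham2 was the highest library for 6 and the lowest for 3 (Slc1a3, Slc1a2 and Gja1). It was the highest for 23.7% and the lowest for 23.0% of all genes tested. TBI3 was below Sham1 and Sham3 for Gfap and Serpina3n and above both for Vim, Lcn2 and Cd44. The labels were kept as given, whether they are right was not tested, and every difference between TBI and sham below depends on them. The part of these differences in the microglial values was not tested either.

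None of the 9 genes passed the edgeR quasi-likelihood test of TBI against sham. The thresholds were 0.05 for the unadjusted p, 0.1 for the adjusted p and a fold change beyond 1.5 in either direction. They were met by 0 of the 9 genes and by 0% of the 18795 genes tested. At an unadjusted p under 0.05 there were also 0 of 9, where 4.29% of all genes passed. DESeq2 called 0 of 9 with its defaults (0.163% of all genes) and without independent filtering (0.229%), and limma-voom called 0 of 9, each with 0 of 9 at an unadjusted p under 0.05. The smallest unadjusted p of the set belonged to Cx3cr1 with each tool. It was 0.187 with edgeR, 0.132 with DESeq2 defaults, 0.147 with DESeq2 without independent filtering and 0.0977 with limma-voom. All 9 log2 fold changes were above 0, with a median of 0.32, while 51.4% of all genes tested were above 0 with a median of 0.0091. This direction rested largely on TBI1, since without it 6 of 9 were above 0 and the median was 0.053. Without TBI3 the median was 0.57. Without both Sham2 and TBI1, 6 of 9 were above 0, with a median of 0.077. In that fit the log2 fold change was larger for Cx3cr1 (1.32), Cd68 (0.81) and Ptprc (0.45), smaller for Trem2 (0.077), Tyrobp (0.17) and Aif1 (0.022), and below 0 for P2ry12 (-0.027), Tmem119 (-0.11) and Csf1r (-0.14). In 0 of the 9 genes were the groups separate, where the groups of 10.2% of all genes did not overlap. With 3 mice per group the 95% intervals were wide, and at this precision a doubling in TBI was inside the interval of P2ry12, Tmem119, Cx3cr1, Aif1, Cd68 and Ptprc.

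**Figure D1:**
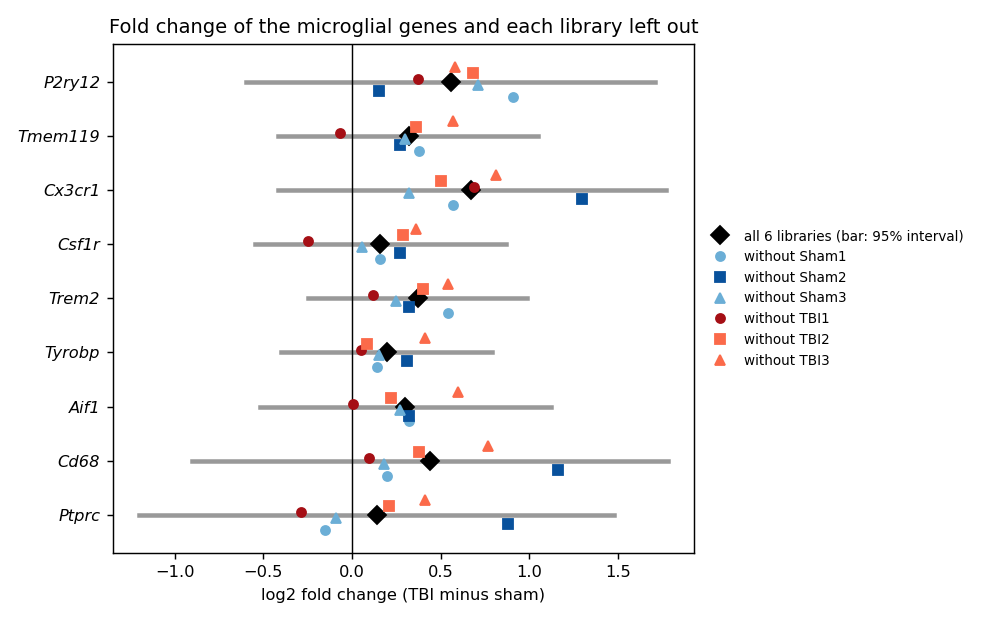
Log2 fold change (TBI minus sham, x axis) of the 9 genes (y axis), with black diamonds for all 6 libraries, grey bars for the 95% interval of the edgeR fit and coloured symbols for fits without 1 library. Every bar crosses 0, and without TBI1 the values of Tmem119, Csf1r and Ptprc lie below 0.

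Among the homeostatic genes, P2ry12 (ENSMUSG00000036353.13, chromosome 3 of GRCm38 from 59216272 to 59262871, minus strand) had levels of 26.3, 6.58 and 22.2 CPM in the sham mice and 33.4, 21.6 and 25.9 CPM in the TBI mice, each in the order of their numbers. Sham2 was below the other 5 libraries, which ran from 21.6 to 33.4 CPM, and the groups overlapped. The mean was 18.3 ± 10.4 CPM for sham and 27.0 ± 5.93 CPM in TBI (mean ± SD of n = 3 mice). The log2 fold change was 0.56 (standard error 0.483, 95% interval -0.60 to 1.71, adjusted p 0.982 by edgeR). The log2 fold change was 0.15 without Sham2 and 0.91 without Sham1, and without both Sham2 and TBI1 it was -0.027.

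Tmem119 (ENSMUSG00000054675.5, chromosome 5 from 113793729 to 113800516, minus strand), which encodes a membrane protein used to tell microglia from blood-derived macrophages, had 36.4, 32.0 and 33.7 CPM in sham and 62.1, 39.3 and 25.7 CPM in TBI. The sham libraries lay within a narrow band that the TBI libraries enclosed on both sides. The spread between mice was 6.56% of the mean in sham and 43.5% in TBI, where the median over all genes tested was 19.2% and 19.7%. Tmem119 had a log2 fold change of 0.32 (standard error 0.307, adjusted p 0.982 by edgeR), and it was -0.069 without TBI1.

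Cx3cr1 (ENSMUSG00000052336.7, chromosome 9 from 119901616 to 120069879, minus strand) had 20.5, 41.6 and 11.2 CPM in sham and 37.9, 47.8 and 31.2 CPM in TBI. Sham2 was the second highest of the 6 libraries, so that in this library Cx3cr1 was high where P2ry12 was low. The mean was 24.4 ± 15.6 CPM for sham and 38.9 ± 8.38 CPM in TBI (mean ± SD of n = 3 mice). The log2 fold change was 0.67 (standard error 0.458, 95% interval -0.42 to 1.77, adjusted p 0.982 by edgeR), the widest difference of the 9 genes. Leaving out Sham3 lowered it to 0.32, and leaving out Sham2 raised it to 1.30. Of its 4505 exonic bases, 78 (1.73%) are also exonic in Gm33858 on the opposite strand.

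**Figure D2:**
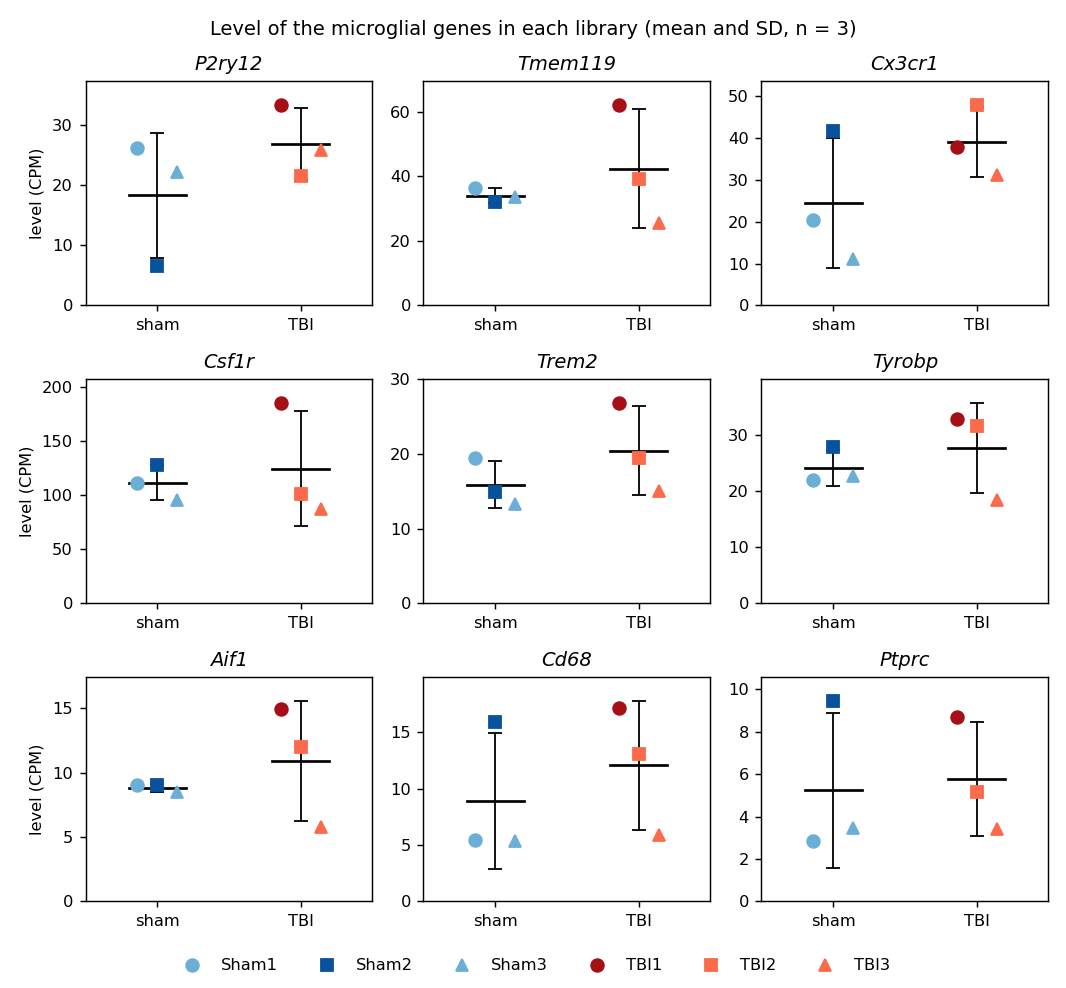
Level in CPM (y axis) of the 9 genes in each sham and TBI library (x axis), with black lines for the mean and bars for the SD of the 3 mice. The groups overlap in every panel, TBI1 is the highest library in 7 panels, and Sham2 is the lowest for P2ry12 and the highest for Ptprc.

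Of the receptors and their adaptor, Csf1r (ENSMUSG00000024621.15, chromosome 18 from 61100598 to 61132149, plus strand), the receptor for CSF1 and IL-34, had 111, 128 and 95.3 CPM in sham and 185, 101 and 86.8 CPM in TBI. TBI1 was above every other library, and TBI2 and TBI3 were below the mean of sham. The log2 fold change was 0.16 (standard error 0.297, 95% interval -0.55 to 0.87, adjusted p 0.984 by edgeR), and it was -0.25 without TBI1. The level is uncertain, because 873 of the 5774 exonic bases of Csf1r (15.1%) are also exonic in Hmgxb3 on the opposite strand, and the strand setting of the counting is not given in the sources used here. Hmgxb3 itself was at 53.0 ± 1.78 CPM for sham and 44.6 ± 5.77 CPM for TBI (mean ± SD of n = 3 mice), with no overlap between the groups.

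Trem2 (ENSMUSG00000023992.14, chromosome 17 from 48346401 to 48354147, plus strand), whose promoter is shown above, had 19.4, 14.9 and 13.3 CPM in sham and 26.8, 19.4 and 15.1 CPM in TBI. TBI1 was above the sham range, TBI2 was at the level of Sham1, and TBI3 was inside the sham range. Trem2 had a log2 fold change of 0.37 (standard error 0.260, 95% interval -0.25 to 0.99, adjusted p 0.982 by edgeR), and it was 0.12 without TBI1. Tyrobp (ENSMUSG00000030579.10, chromosome 7 from 30413760 to 30417585, plus strand), the adaptor that carries the TREM2 signal into the cell, had 21.9, 27.8 and 22.6 CPM in sham and 32.8, 31.6 and 18.4 CPM in TBI. TBI1 and TBI2 were above the sham libraries and TBI3 was below them. Its log2 fold change of 0.20 (standard error 0.249, adjusted p 0.982 by edgeR) was 0.053 without TBI1 and 0.41 without TBI3.

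Of the genes linked to activation, Aif1 (ENSMUSG00000024397.14, chromosome 17 from 35170991 to 35176068, minus strand) had 9.01, 9.02 and 8.47 CPM in sham and 14.9, 12 and 5.79 CPM in TBI. The sham libraries differed by 3.61% of their mean, the narrowest spread of the 9 genes, and TBI lay on both sides of them. Aif1 had a log2 fold change of 0.30 (standard error 0.343, adjusted p 0.982 by edgeR), which was 0.007 without TBI1 and 0.60 without TBI3. Cd68 (ENSMUSG00000018774.13, chromosome 11 from 69664213 to 69666153, minus strand), a glycoprotein of the lysosomal membrane of phagocytes, had 5.46, 15.9 and 5.37 CPM in sham and 17.2, 13.1 and 5.90 CPM in TBI. Sham2, TBI1 and TBI2 were high, and Sham1, Sham3 and TBI3 were low by a wide gap. The mean was 8.89 ± 6.03 CPM for sham and 12.1 ± 5.71 CPM in TBI (mean ± SD of n = 3 mice). The log2 fold change was 0.44 (standard error 0.560, 95% interval -0.90 to 1.78, adjusted p 0.982 by edgeR). It was 1.16 without Sham2 and 0.098 without TBI1.

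Ptprc (ENSMUSG00000026395.16, chromosome 1 from 138062861 to 138175708, minus strand) had 2.84, 9.45 and 3.44 CPM in sham and 8.70, 5.18 and 3.40 CPM in TBI. Sham2 was the highest library and was followed by TBI1. Ptprc had a log2 fold change of 0.14 (standard error 0.560, 95% interval -1.20 to 1.48, adjusted p 0.992 by edgeR). Its sign depended on single libraries, being 0.88 when Sham2 was left out but -0.15, -0.091 and -0.29 when Sham1, Sham3 or TBI1 was.

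The libraries at the extremes were shared between genes. TBI1 had the highest level of 7 of the 9 genes (77.8%), where it was the highest library for 19.7% of all genes tested. The exceptions were Cx3cr1, highest in TBI2, and Ptprc, highest in Sham2. TBI3 had the lowest level of 4 genes (Tmem119, Csf1r, Tyrobp and Aif1) and Sham3 of 3 genes (Cx3cr1, Trem2 and Cd68). Summed over the 9 genes, the level was 253, 285 and 216 CPM in sham and 419, 291 and 218 CPM in TBI. The TBI libraries thus covered a wider range than sham and began at the same level.

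The balance between genes of activation and of homeostasis was measured by 4 ratios within a library. The ratio of Cd68 to P2ry12 was 0.208, 2.41 and 0.242 in sham and 0.515, 0.607 and 0.228 in TBI. TBI1 and TBI2 were above Sham1 and Sham3, TBI3 was between those sham libraries, and Sham2 was above all. The log2 ratio differed by -0.26 between TBI and sham (two-sided exact permutation test over 3 against 3 libraries, p = 0.9, adjusted p 0.9 over 4 ratios), and without Sham2 the difference was 0.89 (exact p = 0.3). The ratio of Aif1 to P2ry12 was 1.37 in Sham2 and 0.223 to 0.553 in the other libraries, with a difference of -0.57 (exact p = 0.6, adjusted p 0.9). Trem2 to Tmem119 stayed between 0.395 and 0.588 in all 6 libraries. The differences were 0.12 for Trem2 to Tmem119 (exact p = 0.5, adjusted p 0.9) and 0.16 for Ptprc to Csf1r (exact p = 0.8, adjusted p 0.9). With 3 mice per group this test cannot give a p below 0.1.

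**Figure D3:**
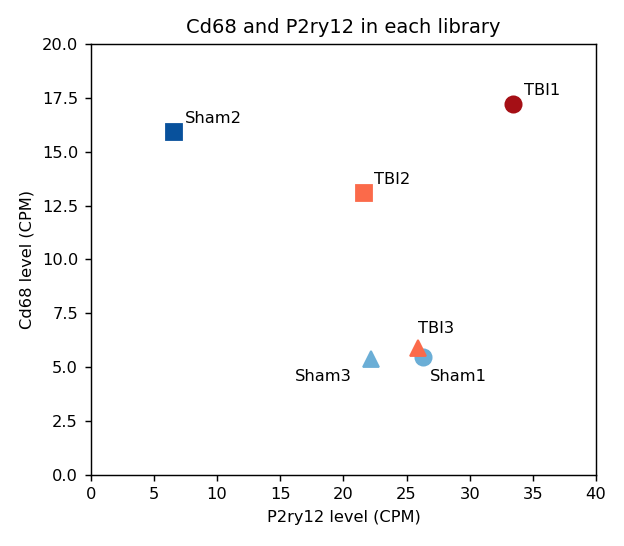
Level of Cd68 (y axis, CPM) against that of P2ry12 (x axis, CPM), with 1 point per library. Sham2 lies alone at 6.58 CPM of P2ry12 and 15.9 CPM of Cd68, TBI1 and TBI2 combine high Cd68 with P2ry12 of 33.4 and 21.6 CPM, and TBI3 lies beside Sham1 and Sham3.

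Levels of different genes were compared per length, as CPM per kb of the union of exons in GENCODE vM21. Tyrobp was the highest with 38.7 ± 8.67 CPM per kb (SD, n = 6 libraries), followed by Csf1r with 20.4 ± 6.21 and Tmem119 with 16.5 ± 5.44 CPM per kb. Each of these was above the next in the order in 6 of 6 libraries, but Csf1r and Tmem119 were close in TBI2 (17.4 and 17.0 CPM per kb), and the level of Csf1r is uncertain through the bases shared with Hmgxb3. P2ry12 (8.90 ± 3.51), Cd68 (8.34 ± 4.40), Cx3cr1 (7.03 ± 3.05) and Aif1 (6.43 ± 2.05 CPM per kb) followed. Among these 4 genes each was above the next in 3 of 6 libraries, so next neighbours did not differ beyond their spread. Trem2 (3.67 ± 0.996 CPM per kb) was below Aif1 in 6 of 6 libraries. Ptprc was the lowest with 0.300 ± 0.158 CPM per kb, and it was below Trem2 in 6 of 6 libraries. Its exon union of 18313 bases is long beside its longest transcript of 5740 bases, and with the longest transcript it was still the lowest, with 0.958 ± 0.503 CPM per kb. With that length Aif1 moved from the seventh to the fourth place of the order.

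**Figure D4:**
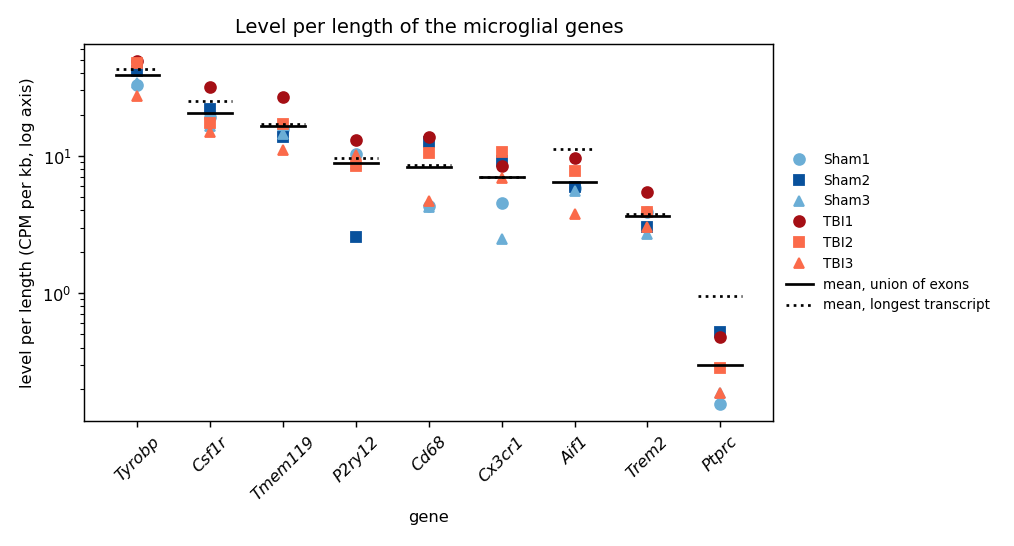
Level per length (y axis, CPM per kb on a log axis) of the 9 genes (x axis, ordered by mean) in each library, with solid lines for the mean over the union of exons and dotted lines for the mean over the longest transcript. Tyrobp, Csf1r and Tmem119 lead and Ptprc is last with both lengths.

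Other genes of the same programme were taken from lists of known microglial genes, and 0 of their tested genes were called by edgeR. Of 18 further homeostatic genes, all tested, 13 were higher and 5 lower in TBI. Their median log2 fold change was 0.15, and -0.070 without TBI1. Of these, 0 had an unadjusted p under 0.05, and the groups did not overlap for Itgb5 and Adgrg1, both higher in TBI (4.77% of all genes were higher in TBI without overlap). Adgrg1, an adhesion receptor, had 56.5, 63.7 and 55.7 CPM in sham and 108, 67.3 and 69.0 CPM in TBI, a log2 fold change of 0.47 (standard error 0.206, adjusted p 0.982 by edgeR), which was 0.22 without TBI1. TBI1 was the highest library for 12 of the 18 (66.7%) and Sham2 the lowest for 8 (44.4%), against 19.7% and 23.0% of all genes tested. The genes lowest in Sham2, named after their values were seen, included the orphan receptor Gpr34 (6.60 CPM, against 12.7 to 21.8 CPM in the other libraries) and the fructose transporter Slc2a5 (1.40 CPM, against 4.07 to 5.68 CPM). Other genes of the list went the other way, also named after their values were seen. Fcrls, a receptor-like gene of microglia, was highest in Sham2 (91.6 CPM, against 38.2 and 37.4 CPM in Sham1 and Sham3), and Olfml3, Bin2 and Itgam were above both other sham libraries there.

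Of 24 genes of the activated state 23 were tested, 10 higher and 13 lower in TBI, and 0 had an unadjusted p under 0.05. The list had a median log2 fold change of -0.30, which was 0.31 without Sham2 and 0.18 without both Sham2 and TBI1. With all 6 libraries it was 0.027 by limma-voom and -0.04 over genes with 10 counts in every library, so it had no stable direction. Axl, which encodes a receptor for dying cells, was the 1 gene of 23 whose groups did not overlap, where those of 10.2% of all genes did not. It was higher in TBI, with 78.5, 73.6 and 72.1 CPM in sham and 91.4, 80.9 and 79.3 CPM in TBI. Sham2 was the highest library for 14 of the 23 (60.9%), against 23.7% of all genes tested. Among them, chosen after their values were seen, the adhesion receptor Cd44 was at 135 CPM in Sham2 and 3.09 to 24.6 CPM in the other libraries, and the secreted protein Spp1 (osteopontin) was at 98.8 CPM in Sham2 and 4.52 to 32.6 CPM in the others. The scavenger receptor Msr1 was at 17.1 CPM in Sham2 and next highest in TBI1 with 6.83 CPM, and Cd14, a receptor for bacterial lipopolysaccharide, was at 29.7 CPM in Sham2 and next highest in TBI1 with 14.2 CPM. Cd44 is also in the astrocyte list. The 2 most abundant genes, the cathepsins Ctsb and Ctsd, had log2 fold changes of 0.14 and 0.038.

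**Figure D5:**
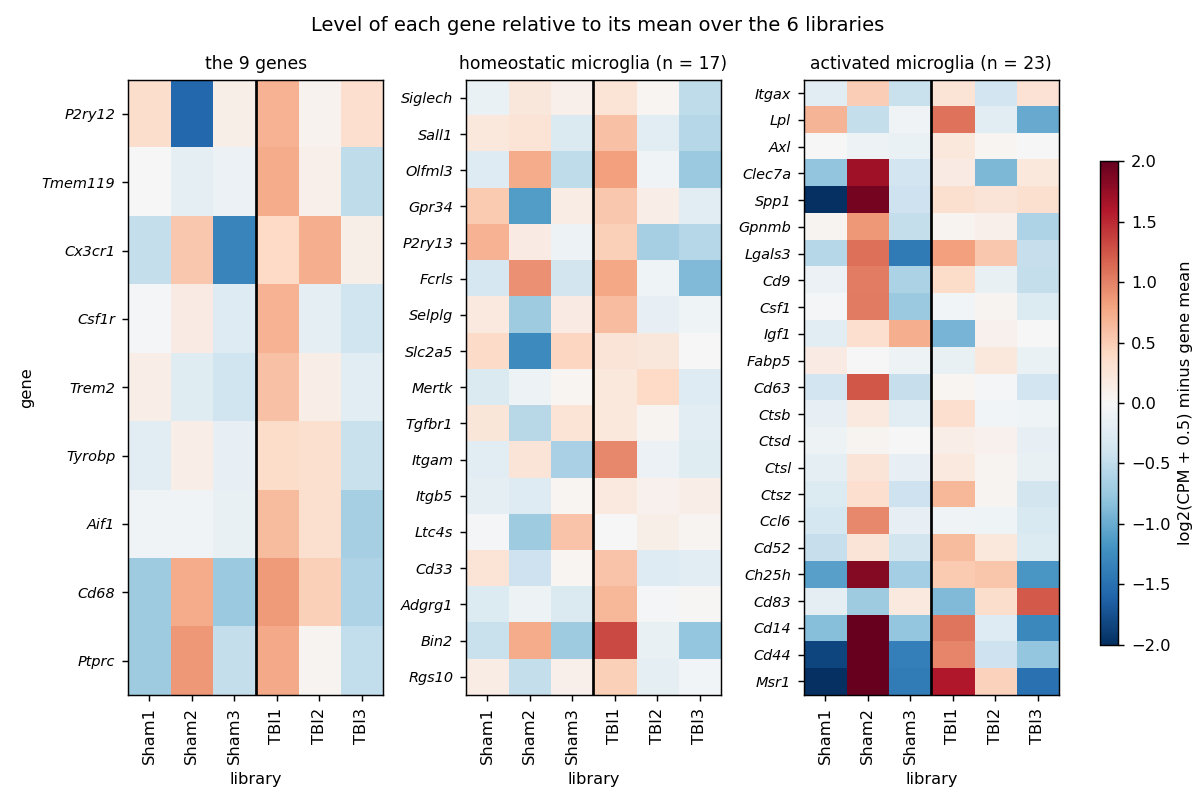
Level of each gene (rows) in each library (columns) as log2(CPM + 0.5) minus the mean of the gene over the 6 libraries, for the 9 genes, 17 of the 18 further homeostatic genes (1 is not reported here) and 23 tested genes of the activated state. The TBI1 column is high in the first and second blocks, and the Sham2 column is low for P2ry12, Gpr34 and Slc2a5, high for Fcrls, Olfml3 and Bin2, and highest for 14 of the 23 genes of the third block.

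Of 22 genes of TREM2 and TYROBP signalling 20 were tested, 13 higher and 7 lower in TBI, and 0 had an unadjusted p under 0.05. The list had a median log2 fold change of 0.10, which was -0.071 without TBI1 and 0.43 without Sham2. Sirpa, an inhibitory receptor that is also carried by neurons, had a log2 fold change of 0.47 (standard error 0.435), which was 0.21 without Sham2 and 1.10 without Sham3. The adaptor Grb2, used in all cell types, had -0.46 (standard error 0.412), which was -0.18 without Sham2 and -0.88 without TBI3. Hcst, which encodes the adaptor DAP10, was the 1 gene of 20 whose groups did not overlap, where those of 10.2% of all genes did not. Its estimated counts were 0, 7 and 0 in sham and 17, 9 and 17 in TBI, near the lower end of what was measured. It passed the filter of low counts only through the TBI libraries, where it was high. Its lack of overlap is therefore no support for a change. Among the ligands and partners of the 9 genes 10 of 11 were tested, 5 higher and 5 lower. Their median was -0.033, with 0.15 without Sham2 and -0.17 without TBI1. The level of Cx3cl1, which encodes fractalkine, was 435, 416 and 97.4 CPM in sham and 132, 88.5 and 269 CPM in TBI, and Il34, a ligand of CSF1R made by neurons, was at 36.2, 26.3 and 33.4 CPM in sham and 58.1, 33.5 and 27.3 CPM in TBI. The groups overlapped in both ligands, which were named after their values were seen. The most abundant genes of that list, App and Clu, had log2 fold changes of 0.024 and -0.16.

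Of 21 genes of phagocytosis and the lysosome, all tested, 16 were higher and 5 lower. Their median was 0.13, and it was 0.048 without Sham1 and 0.33 without Sham2. Of them 1 had an unadjusted p under 0.05, where 4.29% of all genes did, and 0 of the tested genes of the other microglial lists passed it. This gene, the lysosomal cathepsin Ctsh, had 15, 12.6 and 16.0 CPM in sham and 21.4, 22.5 and 17.0 CPM in TBI, with a log2 fold change of 0.48 (standard error 0.181, unadjusted p 0.0331 and adjusted p 0.982 by edgeR). Its groups did not overlap, and the same held for Npc2, so that 2 of 21 were higher without overlap, where 4.77% of all genes were. Lamp1 and Scarb2, the most abundant of the list, had log2 fold changes of 0.13 and 0.018. Of 10 transcription factors, all tested, 6 were higher and 4 lower. Their median was 0.021, with -0.25 without TBI1 and 0.18 without Sham2, and Sham2 was the highest library for 6 of them (60.0%). Spi1, which encodes PU.1 and was named after its values were seen, had 5.23, 13.9 and 4.69 CPM in sham and 15.5, 7.65 and 4.66 CPM in TBI, with Sham2 and TBI1 as the highest libraries, as for Ptprc. The most abundant factors, Cebpa and Maf, had log2 fold changes of 0.023 and 0.054.

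Markers of other leukocytes were summed by list. The summed level of 15 markers of monocytes and infiltrating macrophages was 53.5, 162 and 59.3 CPM in sham and 81.7, 83.7 and 62.0 CPM in TBI, with 2 at 0 in all sham libraries and 1 at 0 in all TBI libraries. Fn1, which vessels and other cells also express, was the most abundant of them, at 28.3 to 91.3 CPM. The 14 neutrophil markers summed to 7.31, 26.2 and 10.4 CPM in sham and 10.2, 16.2 and 8.82 CPM in TBI, with 1 marker at 0 in all sham libraries and 3 at 0 in all TBI libraries. The 13 lymphocyte markers summed to 1.85 to 2.79 CPM in sham and 2.01 to 2.84 CPM in TBI, with 3 at 0 in each group. The 10 markers of border-associated macrophages summed to 30.2 to 53.5 CPM in sham and 36.9 to 55.4 CPM in TBI. These cells line vessels and meninges and share Csf1r, Cx3cr1 and Aif1 with microglia. Their part in the levels of the 9 genes was not tested. The summed monocyte and neutrophil markers were highest in Sham2, as were Ptprc and 14 of 23 genes of the activated state, and the part of these markers in those levels was not tested. Sham2 was the highest library for 6 of 10 tested monocyte markers and 4 of 6 tested neutrophil markers.

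The genes with the pattern most like the mean of the 9 genes, measured by Pearson's r over the 6 libraries among 15920 other genes of at least 1 CPM on average, were Ikzf1 (r = 0.995, Spearman's rho = 1.0), AI197445 (0.994 and 0.943), Heatr5b (0.989 and 1.0), Trmo (0.981 and 0.943) and Dpp3 (0.976 and 0.943). These 5 were picked as the closest of many, so their r values describe the choice. Without TBI1 and TBI3, the libraries farthest from the median, r was between 0.933 and 0.991 over the remaining 4 libraries. Ikzf1, which encodes the leukocyte transcription factor Ikaros, had 3.56, 4.69 and 2.40 CPM in sham and 11.1, 5.25 and 2.36 CPM in TBI. Heatr5b and Dpp3 moved over a narrow range, from 44.6 to 56.9 CPM and from 33.7 to 42.1 CPM.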

How the data were processed

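Estimated counts were deposited, with 1 whole number for each gene and library. The authors used FastQC for quality control, HISAT2 for alignment to GRCm38 and StringTie for quantification. Their versions, annotation release, strand setting and conversion to counts are not given in the sources used here. Low values pile up at multiples of 4 (5109 values of 4, 2325 of 3), so the values are not single reads and no counting interval is given. Of 52550 identifiers 52403 had a symbol. Coordinates and lengths came from GENCODE vM21.

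Groups and replicate numbers came from the sample titles. R 4.3.3 was used with edgeR 4.0.16 (filterByExpr, TMM, quasi-likelihood test, Benjamini-Hochberg over 18795 genes), limma 3.58.1 and DESeq2 1.42.0, the tool of the study. The standard error is the absolute log2 fold change over the square root of F. The fits were also run on simulated data in which the changes were larger than those of the microglial genes and no library stood apart. Those runs do not measure the power for the differences given here. Replicates were separate mice.

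The genes and the 17 lists were chosen with earlier results of these data known, so no list was tested. Named by rule were the 9 genes, the 2 most abundant and up to 3 genes at p under 0.05 of each of 6 microglial lists, the most abundant gene of each of 11 other lists and its gene of smallest p if under 0.05, and the 5 most alike genes. One gene named by this rule is not reported here. Alternatives were DESeq2, limma-voom, library totals, upper-quartile and DESeq2 scaling, a filter of 1 count in any library or 10 in every library, counts divided by 4, robust dispersions, other thresholds, CPM of the deposited totals, the longest transcript, each library left out and the replicate number as a block. The fit without both Sham2 and TBI1 was chosen after seeing the data.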

Additional observations from a re-analysis of the deposited data

How the results depend on the processing

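None of the 9 genes was called under any alternative, and their lowest adjusted p was 0.801. The count of genes called among all genes was 46 with DESeq2 defaults, 43 with DESeq2 without independent filtering and 3 without Sham2 and TBI1 (Tomm5, Zfp664 and Pcdhgb8, named after their values were seen). With 1 library left out it was 0 to 1 (Zfp664 without TBI1). The cause of these changes was not tested. With the replicate number as a block the count was 0 and the median of the 9 genes 0.23, and no call changed, while the median of the activated genes was 0.034 and that of the transcription factors -0.0038. The deviations of same-numbered libraries correlated at -0.0996, -0.065 and 0.153, so the numbers were not taken as pairs.

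Without both Sham2 and TBI1 the log2 fold change was 1.32 for Cx3cr1, 0.81 for Cd68 and 0.45 for Ptprc, -0.027 for P2ry12, -0.11 for Tmem119, -0.14 for Csf1r and -0.045 for App, and the list medians were 0.18 for activated genes, -0.23 for homeostatic genes, 0.42 for neutrophils, -0.15 for neurons and 0.074 for striatum. Limma-voom gave -0.0089 for Cebpa. The lymphocyte median was 0.065 with counts divided by 4, 0.14 with a filter of 1 count in any library and 0.075 with 10 counts in every library.

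With 1 library left out, the log2 fold change ran from -0.069 to 0.57 for Tmem119, -0.25 to 0.36 for Csf1r, -0.29 to 0.88 for Ptprc, -0.28 to 0.27 for Cebpa, -0.047 to 0.20 for Maf, -0.009 to 0.28 for Ctsb, -0.017 to 0.12 for Ctsd, -0.02 to 0.045 for App, -0.045 to 0.079 for Scarb2 and -0.037 to 0.40 for Trmo. The medians ran from -1.48 to 0.40 for neutrophils, 0.071 to 1.34 for lymphocytes, -0.16 to 0.077 for neurons, -2.13 to 0.039 for choroid plexus and 0.0035 to 3.83 for striatum. The log2 ratios ran from -0.88 to 0.89 for Cd68 to P2ry12 (0.18 without TBI3), -0.93 to 0.072 for Aif1 to P2ry12 and -0.18 to 0.58 for Ptprc to Csf1r.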
